A study of Mus musculus with 24 samples.

Results

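Keratin 8/18 cells were the barcodes of subcutaneous Panc02 mouse tumors in which transcripts of Krt8 and Krt18 were abundant, those of Ptprc, Pecam1, Prelp and Ogn were absent, and those of the basal keratins and of Svs4 and Svs5 were few. Panc02 is a pancreatic cancer line, and a UMI is a unique molecular identifier, the tag that marks 1 captured transcript. A barcode passed with at least 1000 UMIs and under 10% of them from mitochondrial genes. Members were chosen by their measured Krt8, Krt18 and exclusion-gene UMIs. A passing barcode was a keratin 8/18 cell if Krt8 and Krt18 together had at least 5 of every 10000 UMIs, if no UMI came from Ptprc, Pecam1, Prelp or Ogn, if at most 1 came from Krt5 and Krt14, and if Svs4 and Svs5 made up under 1% of the UMIs. No upper limit was set on UMIs. Of 144994 barcodes in 16 libraries, 120912 (83.4%) passed and 17069 (14.1% of those) were keratin 8/18 cells, with 575 to 1939 of them per library.

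Keratins 8 and 18 pair to form the intermediate filaments of simple epithelia, including those of pancreatic acini and ducts, and carcinomas of the pancreas usually keep them. Rhox5 is an X-linked homeobox gene of the testis that many mouse tumor lines express, and Cks1b encodes a small subunit of cyclin-dependent kinases that is needed for the cell cycle to proceed. Prelp and Ogn encode small leucine-rich proteoglycans of the extracellular matrix, and Ptprc encodes CD45, the surface phosphatase of leukocytes.

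All tumors grew in the flanks of wild-type male C57BL/6 mice of 6 to 7 weeks. The groups were isotype antibody alone, anti-PD-1, anti-CTLA-4, anti-PD-1 with anti-CTLA-4, and the same 4 antibody settings with PancVAX, a vaccine of Panc02 neoantigen peptides with the adjuvant AddaVax and a STING agonist. Mice without PancVAX received saline, and mice without a checkpoint antibody received its isotype. Vaccination fell on days 12 and 19 after implantation. Antibody doses were 100 µg, with the PD-1 antibody repeated through the experiment from day 12. By the study's methods the CTLA-4 antibody was injected on days 15 and 22 and tumors were taken on day 38. A figure caption of the study instead gives day 19 for the second CTLA-4 dose and an earlier day for the tumors. Cells of the mice of each treatment were pooled, and each treatment gave a whole-tumor library and a library made by Percoll density separation. The study describes the latter as enriched for immune cells, and the preparations were sequenced as separate batches. Cells with a Ptprc UMI were not a larger part of the Percoll library in every treatment. With both antibodies they were 3501 of 10252 passing barcodes against 2151 of 6746 in the whole tumor. With PancVAX alone they were 2401 of 6279 against 2370 of 5868. The 2 libraries of a treatment are called a pool here. Each treatment is therefore counted as 1 pool, and the effect of an agent was read from 4 pools with and 4 pools without it. This assumes that the agents do not interact. An effect of a combination alone shifts the estimate of each agent in it and adds to the spread between these pools. For the agents, p-values measure only that spread. For Percoll they measure the spread of the differences between the 2 libraries of a treatment.

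Keratin 8/18 cells had a median of 19957 UMIs against 9578 in the other passing barcodes, and a highest value of 110409. Barcodes that met the rest of the rule but had a Prelp or Ogn UMI were close, at a median of 18060. Only 5020 keratin 8/18 cells (29.4%) lay within the study's own limits of 10000 UMIs and 3000 genes per cell. Most of what follows therefore concerns cells above those limits. The Percoll library of PancVAX with anti-PD-1 stood apart, with a median of 4969.5 UMIs per keratin 8/18 cell against 17244 to 25370 in the other 15 libraries. Of the keratin 8/18 cells, 20.4% had under 5000 UMIs and 43.8% had at least 1 UMI of an immune marker other than Ptprc. Scrublet called 111 of them (0.650%) doublets, against 1.80% of all passing barcodes, but it marked only 1 to 4 barcodes in each of 3 libraries (isotype whole tumor and the Percoll libraries of PancVAX with anti-PD-1 and of all 3 agents), where it did not work. Barcode sequences were rarely shared, with 210 of 16859 keratin 8/18 sequences (1.25%) seen as keratin 8/18 cells in more than 1 library.

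The defining genes were detected at high levels in all 8 pools. Levels are given in CPM, the UMIs of a gene per 1000000 UMIs, of the summed keratin 8/18 cells of a pool, and they compare samples and cell classes for 1 gene, not genes with each other. Krt8 (chr15:101996711-102004342, build GRCm38.p6) was at 780 to 1168 CPM with a median of 890 (889.8), and Krt18, its partner from the same keratin cluster (chr15:102028216-102032026), was at 1163 to 1570 (1569.98) with a median of 1304. These values follow from the rule and are given as description. Rhox5 (chrX:37754608-37808878), which the rule did not use, was at 757 CPM with isotype, 764 with anti-PD-1, 843 with anti-CTLA-4, 742 with both antibodies, 849.8 with PancVAX, 725 with PancVAX and anti-PD-1, 804 with PancVAX and anti-CTLA-4, and 721 with all 3 agents. The pools with and without PancVAX overlapped. Cks1b (chr3:89415472-89418291) was at 371, 393, 392 and 372 CPM in the same order without PancVAX and at 318, 322, 422 and 329.6 with it, where the pool given PancVAX and anti-CTLA-4 was the highest of all 8.

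**Figure D1:**
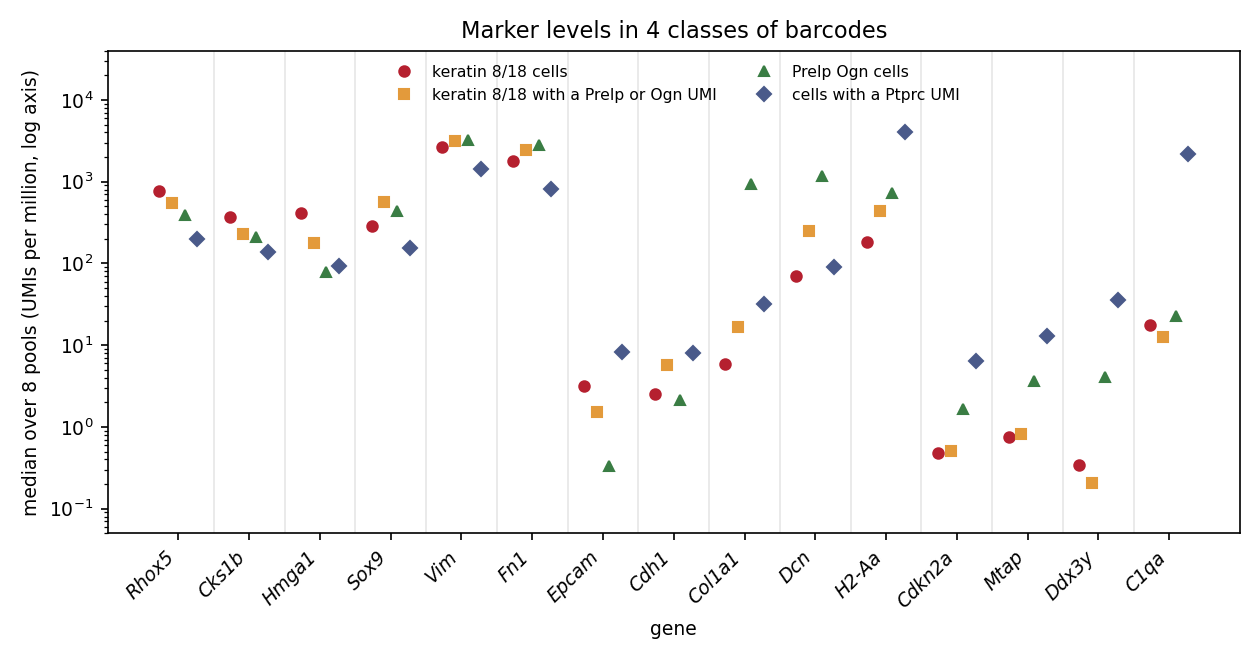
Median level over 8 pools (CPM, log axis) of 15 genes in 4 classes of barcodes: keratin 8/18 cells (red circles), keratin cells with a Prelp or Ogn UMI (orange squares), Prelp Ogn cells (green triangles) and cells with a Ptprc UMI (blue diamonds). Rhox5, Cks1b and Hmga1 were highest in keratin 8/18 cells (760.5, 371 and 419 CPM), while Epcam and Cdh1 were below 10 in every class.

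The working name of these cells, epithelial tumor cells, held only in part. Cells were thinned to 1000 UMIs each so that shares of cells with a UMI could be compared across depths. Rhox5 was then seen in 46.6% of keratin 8/18 cells (87.5% before thinning) and 6.37% of cells with a Ptprc UMI (median depth 5037.5 UMIs), and Cks1b in 23.9% and 6.36%. Epcam, the classical epithelial surface marker, was seen in 0.299% of keratin 8/18 cells against 0.71% of cells with a Ptprc UMI, and Cdh1, which encodes E-cadherin, in 0.328% against 1.06%, so neither exceeded the level in leukocytes. The ductal keratins were rare, with Krt19 in 2.25% and Krt7 in 1.86%. Vim, the intermediate filament of mesenchymal cells, was seen in 83.4%. In Prelp Ogn cells, defined below, Rhox5 was seen in 28.6%, Cks1b in 15.0% and Vim in 84.8%. Krt19, Krt7 and Epcam were seen in 0.0197%, 0.0788% and 0.0591% of Prelp Ogn cells, and Cdh1 in 0.335%. The keratin 8/18 cells are therefore called by their keratins here.

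Transcription factors and secreted products of the pancreas gave a mixed picture. Sox9, a factor of ductal and progenitor cells, had a median of 286 CPM over the pools, Pdx1, which patterns the early pancreas, 18.8 CPM and Foxa2 5.36 CPM, whereas no UMI of Hnf4a, Ptf1a, Onecut1, Ins1, Ins2 or Cpa1 was counted in any pool. A count of 0 among 379586795 UMIs allows up to 0.00790 CPM. Such limits and the intervals given below cover counting error only. Of the junction genes, Spint2, which encodes an epithelial protease inhibitor, was at 186 CPM, Cldn7 at 26.8 CPM and Tjp1 at 51.0 CPM. Among mesenchymal genes, Fn1 was at 1775 CPM and Snai1, which represses Cdh1, at 38.2 CPM, while Col1a1, the fibrillar collagen of fibroblasts, was at 5.95 CPM against 932 in Prelp Ogn cells (barcodes with at least 2 Prelp or Ogn UMIs that did not reach the keratin threshold).

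The genes of the Cdkn2a locus were almost silent. Cdkn2a (chr4:89274473-89294619), which encodes the tumor suppressors p16 and p19Arf, was at 0.477 CPM against 6.45 in cells with a Ptprc UMI. Its neighbors Cdkn2b (chr4:89306289-89311032) and Mtap (chr4:89137370-89181090) were at 0.274 and 0.756 CPM against 1.54 and 13.0 in cells with a Ptprc UMI. The Y-linked gene Ddx3y was at 0.344 CPM against 35.9 in those cells, all of them from male hosts. Trp53, which is mutated in many pancreatic cancers, was at 167 CPM.

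The largest step of the rule was the exclusion of barcodes with a Prelp or Ogn UMI. The keratin threshold was passed by 64307 barcodes, of which 44042 (median 18263 UMIs) had such a UMI. Ptprc removed 5966, Pecam1 1349, Krt5 and Krt14 together 1036 and the Svs genes 5, with overlaps. Among threshold-passing barcodes with no other exclusion, 39399 had a Prelp or Ogn UMI and the 17069 keratin 8/18 cells were 30.2%. Of the threshold-passing barcodes, 7.68% had a Ptprc UMI without PancVAX and 11.0% with it. At the threshold itself, 714 keratin 8/18 cells had 5 to 6 keratin UMIs per 10000, and Rhox5 was seen in 33.2% of them after thinning, against 28.6% of the 644 barcodes at 4 to 5 per 10000. Keratin 8/18 cells with a single keratin UMI made up 6.23%, and the median was 33 keratin UMIs per cell, or 17.1 per 10000.

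Since Prelp and Ogn chose the members, the comparison with keratin cells that had a Prelp or Ogn UMI is given without a test. The median depths of keratin 8/18 cells and of those cells were 19957 and 18060 UMIs, and in each pool they came from the same libraries. Of 13871 genes, 24.2% were higher in keratin 8/18 cells in 8 of 8 pools and 34.5% were lower in 8 of 8. Cell cycle genes were higher throughout, with 30 of 30 S phase genes and 35 of 36 G2 and M phase genes higher in 8 of 8 pools. Their summed levels had medians of 1850.4 and 4403 CPM in keratin 8/18 cells against 1099 and 2911 CPM. Mcm2, part of the replicative helicase, differed by 0.92 on the log2 scale and Mki67, the proliferation marker, by 0.81. Hmga1, a chromatin protein of proliferating and cancer cells, differed by 1.15 (SD 0.11 over 8 pools), with 419 CPM against 179.8.

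Glycolysis and hypoxia genes had 15 of 26 members higher in 8 of 8 pools and 1 lower, with summed medians of 13118 and 9407 CPM. The opposite was seen for antigen presentation and the interferon response. All 7 MHC class II genes tested were lower in 8 of 8 pools (summed medians 1122 and 2563 CPM), as were 16 of 21 MHC class I genes and 35 of 47 interferon-stimulated genes. H2-Aa, the alpha chain of the class II molecule I-A, had a median of 182 CPM in keratin 8/18 cells, 439 in those with a Prelp or Ogn UMI, 729.8 in Prelp Ogn cells and 4065 in cells with a Ptprc UMI. Immediate-early and heat shock genes had 16 of 24 members lower and 3 higher. Sox9 differed by a mean of −1.06 on the log2 scale and Dcn, a proteoglycan gene of fibroblasts, by −1.997, while Rhox5 differed by 0.48 and Cks1b by 0.70. Of the interferon receptor and kinase genes 5 of 7 were lower and none higher in 8 of 8 pools, whereas the basement membrane and integrin genes split, with 10 higher and 13 lower of 29.

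Clustering divided the keratin 8/18 cells into 14 groups, described here by their leading genes. Because the clusters were made from the expression of these same cells, no difference between clusters is tested. Cluster 1 (3284 cells) was mitotic, with 803 CPM of Ube2c, which encodes the E2 enzyme of the anaphase-promoting complex, and 350.6 CPM of the kinetochore gene Cenpf. Its cells had the highest median depth of clusters 1 to 8, at 40232.5 UMIs. In clusters 2, 3 and 4, Ube2c was at 9.03 to 32.1 CPM. Cluster 4 (1943 cells) carried Ung, a DNA repair glycosylase, at 44.2 CPM and Mcm2 at 119 CPM, and its summed S phase genes came to 2200.0 CPM next to 2697 in cluster 1 and 938 in cluster 3. Cluster 7 (1171 cells) had 278 CPM of Cenpf and 397 CPM of Ube2c, together with the predicted gene Gm26917.

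Cluster 2 (2594 cells) was led by interferon-induced genes. Gbp2, a guanylate-binding GTPase, was at 1385 CPM there and at 82.6 to 373 CPM in the other clusters from 1 to 8. Iigp1, Igtp and the T cell chemokine Cxcl9 were at 285, 382 and 265.5 CPM. H2-Aa was at 544 CPM in cluster 2 and 26.5 CPM in cluster 3, and Cd274, which encodes PD-L1, at 31.7 CPM in cluster 2 against 1.72 to 6.89 CPM in clusters 1 and 3 to 8. Cluster 3 (2588 cells) had the neutrophil chemokine Cxcl5 at 359 CPM and Id3, an inhibitor of helix-loop-helix factors, at 912 CPM. Cluster 6 (1511 cells) was the group with hypoxia genes, where Ero1l, an oxidase of the endoplasmic reticulum, was at 980.5 CPM, Bnip3 at 1048 CPM and Car9, a carbonic anhydrase, at 457 CPM. The summed glycolysis and hypoxia genes were at 30696 CPM in cluster 6 and at 9946 to 11882 CPM in the other clusters from 1 to 8.

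**Figure D2:**
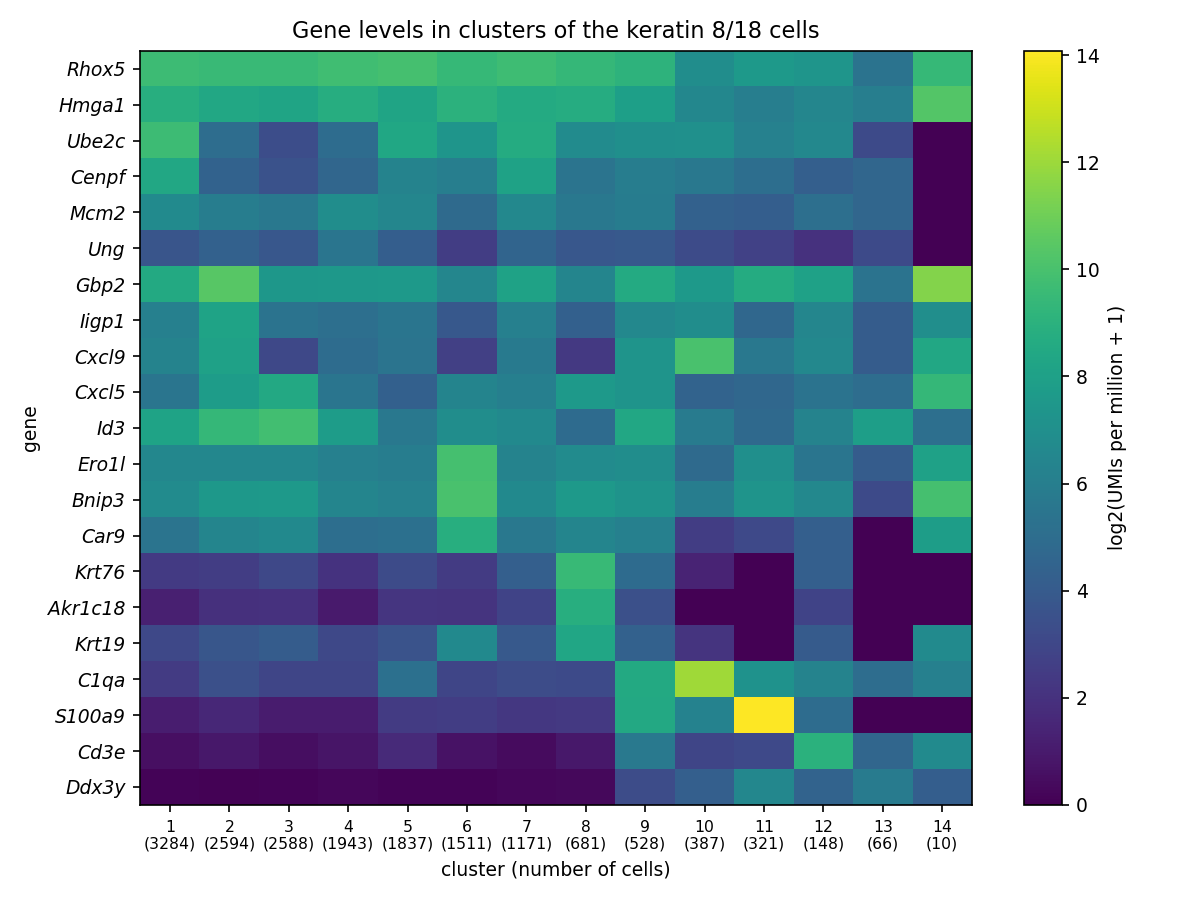
Level, as log2(CPM + 1), of 21 genes (rows) in the 14 clusters of keratin 8/18 cells (columns, with the number of cells); yellow is high and dark purple is 0. Clusters 1 to 8 had Rhox5 and almost no Ddx3y. Clusters 9 to 13 had Ddx3y, with C1qa, S100a9 or Cd3e in clusters 9 to 12. Rhox5 was at 549 CPM in cluster 9 and at 40.1 to 191 CPM in clusters 10 to 13. Cluster 13 was led by B cell genes that are not shown.

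Cluster 5 (1837 cells) consisted of shallow cells with a median of 3410 UMIs, led by Lars2, Gm42418 and Atp5k. It also carried hemoglobin transcripts, which summed to 546 CPM there and to at most 2.2 CPM in the other clusters from 1 to 8. Clusters 9 to 13 (1450 cells, 8.49% of keratin 8/18 cells) had medians of 1330.0 to 3488 UMIs and were led by immune genes. C1qa, a macrophage complement gene, reached 4345 CPM in cluster 10, the neutrophil gene S100a9 reached 17332 CPM in cluster 11, and Cd3e of T cells 502 CPM in cluster 12. Rhox5 was seen in 80.3% to 96.2% of the cells of clusters 1 to 8, in 73.3% of cluster 9 and in 7.58% to 14.2% of clusters 10 to 13. Ddx3y was at 0.0717 to 0.217 CPM in clusters 1 to 8 and at 8.82 to 89.6 CPM in clusters 9 to 13. Whether the immune transcripts came from doublets, free RNA or leukocytes with a missed Ptprc transcript was not tested, and the gene tests of the agents and of Percoll were also run without these clusters. Cluster 13 (66 cells) was led by the B cell genes Cd79a, Ighm and Igkc. Cluster 14 (10 cells) came only from the shallow Percoll library of PancVAX with anti-PD-1. It was led by Cryab together with the lymphocyte genes Cd52, Ccl5 and Cd69. It had Rhox5 in 100% of its cells and an immune UMI in 90%, and was kept in those tests.

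Cluster 8 (681 cells) was led by Krt76 (chr15:101884351-101892920), a keratin of the palate and other suprabasal epithelia, by Akr1c18 (chr13:4132615-4150646), which encodes a progesterone-metabolizing hydroxysteroid dehydrogenase, and by Enpp2, Krt79 (chr15:101929332-101940324) and the forkhead gene Foxq1. Their levels were 704, 454, 344, 165 and 422.5 CPM in cluster 8, and the first of them was at 3.19 to 18.5 CPM in clusters 1 to 7. Krt8 and Krt18 were at 2265 and 2520.4 CPM in cluster 8 against 809 to 1076 and 1100.3 to 1675 CPM in clusters 1 to 7. Krt19 was at 319 CPM, Krt7 at 217 CPM and Epcam at 15.3 CPM, the last against 1.31 to 5.29 CPM in clusters 1 to 7. Rhox5 was seen in 96.0% of its cells and Ddx3y was at 0.217 CPM.

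The genes of cluster 8 were high in the 2 pools that had received both anti-PD-1 and anti-CTLA-4. They were picked after their values were seen, so their levels are a description with no test. Krt76 was at 4.79 CPM with isotype, 4.07 with anti-PD-1, 6.35 with anti-CTLA-4, 130.2 with both antibodies, 2.15 with PancVAX, 1.10 with PancVAX and anti-PD-1, 6.28 with PancVAX and anti-CTLA-4, and 74.7 with all 3 agents. Akr1c18 was at 0.0961, 0.363, 0.340, 58.5, 2.68, 0.455, 2.39 and 100.4 CPM in that order. The pools given both antibodies lay above the other 6 without overlap for each of these genes. Krt79 was at 0.4999, 0.363, 1.42, 32.2, 0.162, 0.569, 2.44 and 15.3 CPM, and Foxq1 at 20.4, 15.5, 15.9, 82.4, 22.9, 30.8, 29.8 and 74.3 CPM. Krt19 was at 15.4, 6.95, 24.6, 61.8, 32.7, 8.95, 31.1 and 46.6 CPM, again highest in those 2 pools, although with a smaller gap to the others.

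The pattern was present in the whole-tumor and the Percoll library of each pool. After thinning to 1000 UMIs, Krt76 was seen with both antibodies in 7.75% of whole-tumor (95% Wilson interval 6.38% to 9.38%) and 10.9% of Percoll keratin 8/18 cells (9.34% to 12.6%). With all 3 agents it was seen in 6.38% (4.96% to 8.18%) and 6.02% (4.38% to 8.22%). The other 12 libraries were at 0% to 0.870%, the lowest being the whole tumor with PancVAX and anti-PD-1, where 0 of 645 cells had a UMI after thinning, which allows up to 0.465% at that depth, and 0.620% had one before thinning. Akr1c18 was seen with both antibodies in 3.10% (2.27% to 4.23%) and 6.87% (5.64% to 8.33%), with all 3 agents in 6.83% (5.35% to 8.68%) and 7.86% (5.96% to 10.3%), and in at most 0.522% elsewhere. The transcripts were in the same cells. With both antibodies, 420 of the 500 cells with a Krt76 UMI (84%) also had an Akr1c18 UMI, against 1.91% of the cells without Krt76, and with all 3 agents 226 of 257 (87.9%) had one, against 5.92%. In the other 6 pools 240 of 12983 cells had a Krt76 UMI, and 12 of those 240 (5%) had an Akr1c18 UMI. Only 5 keratin 8/18 barcode sequences were shared by the 2 pools given both antibodies, 4 of them with a Krt76 UMI in either. Each of these treatments is 1 pool, and whether its 2 libraries hold the same mice is not given. The antibody pair and the mice that made up the pools therefore cannot be told apart.

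**Figure D3:**
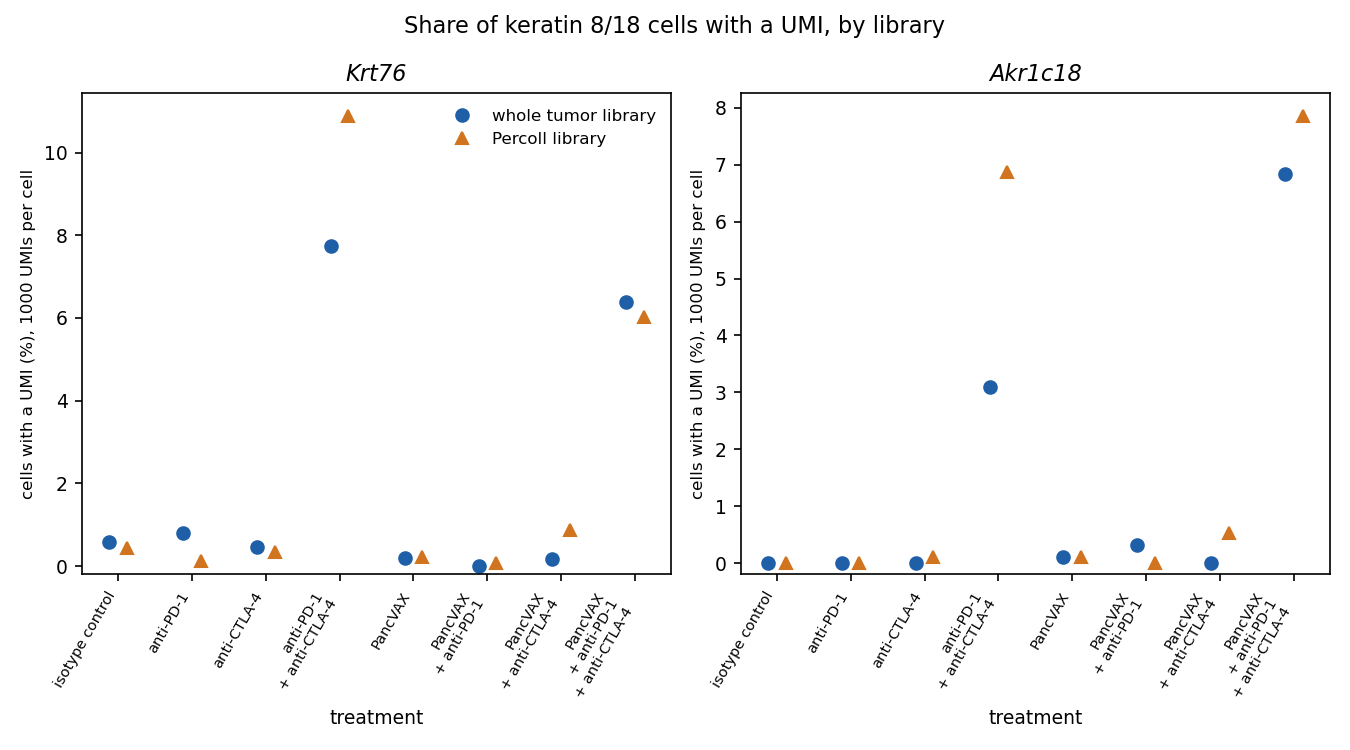
Share of keratin 8/18 cells with a UMI (%) after thinning to 1000 UMIs per cell, for Krt76 (left) and Akr1c18 (right), in the whole-tumor (circles) and Percoll (triangles) library of each treatment. The 4 libraries given both anti-PD-1 and anti-CTLA-4 were at 6.02% to 10.9% for Krt76 and 3.10% to 7.86% for Akr1c18, above all others.

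The share of passing barcodes that were keratin 8/18 cells addressed whether treatment changed how much of the tumor they made up. In bulk shares of this kind fewer keratin 8/18 cells and more cells of other types cannot be told apart. The mean of both libraries was 16.1% with isotype, 12.4% with anti-PD-1, 22.0% with anti-CTLA-4 and 15.8% with both antibodies, and 16.1% with PancVAX, 10.6% with PancVAX and anti-PD-1, 10.2% with PancVAX and anti-CTLA-4 and 9.83% with all 3 agents. The 3 pools given PancVAX with an antibody were the lowest of the 8, and PancVAX alone was as high as isotype. This order depends on the rule, since the share leaves out keratin cells with a Prelp or Ogn UMI. In whole-tumor libraries those cells were 1377 of 5868 passing barcodes with PancVAX alone and 2821 of 8767 with isotype. With them counted too, PancVAX alone lay below isotype in both preparations. Anti-PD-1 alone then had the lowest mean of both libraries. The pools of PancVAX with anti-CTLA-4 and of all 3 agents then lay above PancVAX alone in that mean. No test was run on these counts. With PancVAX the share was 11.7% ± 2.97 (SD, n = 4 pools) and without it 16.6% ± 4.00, a difference of −4.88 percentage points that did not pass an exact two-sided permutation test over the 70 splits of the pools (p = 0.114, 0.343 after Benjamini-Hochberg adjustment over 3 agents, smallest possible p 0.0286). Within preparations the difference was −5.80 points in whole-tumor libraries (exact p = 0.0571) and −3.97 in Percoll libraries (exact p = 0.2).

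The antibodies did not separate the shares either. With anti-PD-1 the share was 12.1% ± 2.64 against 16.1% ± 4.83 without it (exact permutation p = 0.229, adjusted 0.343), and with anti-CTLA-4 it was 14.4% ± 5.73 against 13.8% ± 2.76 (exact permutation p = 0.971). The sign for anti-CTLA-4 turned in the Percoll libraries, at −0.772 points. The share was lower in Percoll libraries, at 12.7% ± 3.87 against 15.5% ± 4.77 in whole-tumor libraries (n = 8 pairs), and 7 of 8 treatments had the lower value in Percoll. The mean paired difference of −2.77 points (SD 2.37) passed an exact sign-flip permutation test (p = 0.0312, smallest possible p 0.00781). The exception was PancVAX with anti-PD-1, at 9.38% in the whole tumor and 11.8% in the shallow Percoll library. Cluster 9, led by immune genes, held 21.5% of that library's keratin 8/18 cells, and the share was not computed without such clusters. In cells of 5000 UMIs or more, an alternative chosen after seeing the data, 8 of 8 treatments were lower in Percoll (exact sign-flip p = 0.00781). The call held in 10 alternatives and was lost in 7. The call was lost (exact p = 0.0625) without the pool of isotype, of anti-CTLA-4, of both antibodies, of PancVAX with anti-CTLA-4 or of all 3 agents. The differences there were −2.78 to −2.47. Within the study's limits on UMIs and genes the difference was −3.35 (exact p = 0.0859). Keratin cells with a Prelp or Ogn UMI, which this share leaves out, went the other way. They were a larger part of the Percoll library in every treatment. With isotype they were 1874 of 4881 passing barcodes in Percoll against 2821 of 8767 in the whole tumor. Counted together, both classes were a larger part of the Percoll library in every treatment except all 3 agents. No test was run on these counts.

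**Figure D4:**
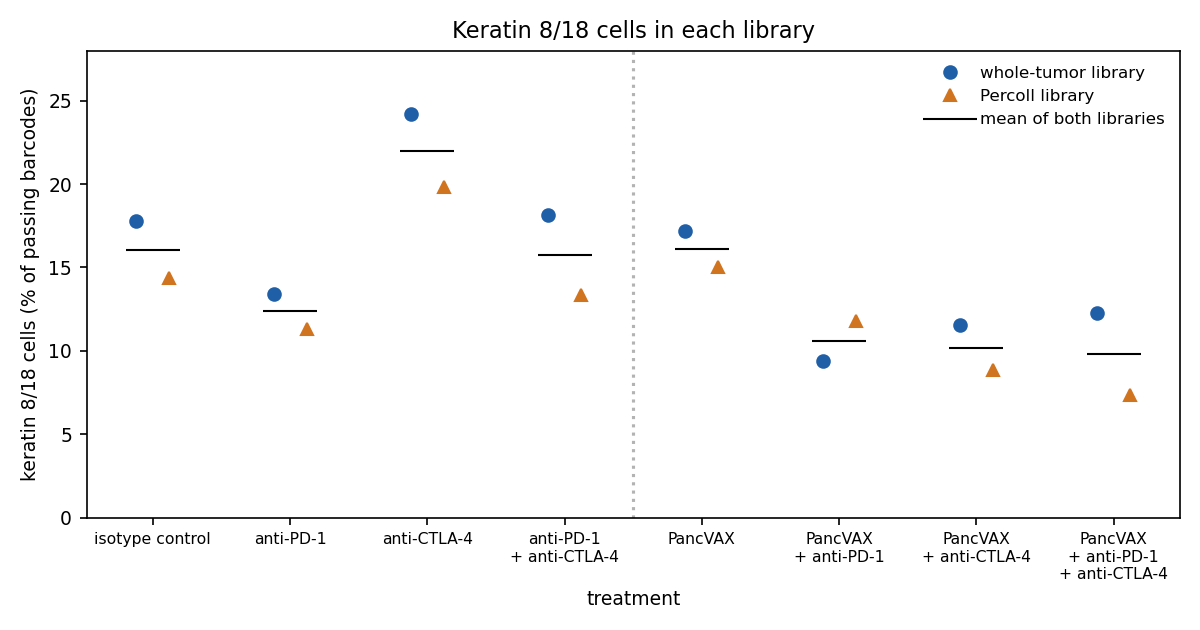
Keratin 8/18 cells as a share of passing barcodes (%) for each treatment, in the whole-tumor library (circles), the Percoll library (triangles) and their mean (bars). Pools without PancVAX, left of the dotted line, had means of 12.4% to 22.0%, and those with PancVAX 9.83% to 16.1%.

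Among the classes scored for cycling transcripts, keratin 8/18 cells had the largest share of cells with one. Keratin cells with a Prelp or Ogn UMI were not scored. After thinning to 1000 UMIs, 31.1% of keratin 8/18 cells had a UMI of Mki67, Top2a, Cdk1, Ccnb1, Ccna2 or Ube2c (66.9% before thinning). Prelp Ogn cells were at 15.6% and cells with a Ptprc UMI at 15.3% (53.3% and 37.9% before thinning). The share of keratin 8/18 cells by pool, as the mean of both libraries, was 31.5%, 30.1%, 32.1% and 31.2% without PancVAX. With it the share was 29.2%, 26.4%, 35.3% and 29.3%, in the same order of antibodies. The pools overlapped for every agent. The difference was −1.20 points with PancVAX (exact permutation p = 0.629), −2.74 with anti-PD-1 (p = 0.171) and 2.70 with anti-CTLA-4 (p = 0.2), the last 2 at an adjusted p of 0.3. In whole-tumor libraries alone the anti-CTLA-4 difference was 5.19 points, with pools that did not overlap (exact permutation p = 0.0286, the smallest the design allows, adjusted 0.0857), and in Percoll libraries alone it was 0.201 points (exact permutation p = 0.943).

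Whether PancVAX or the antibodies changed genes within keratin 8/18 cells was tested on UMI counts summed per pool with edgeR's quasi-likelihood test, with a call at an adjusted p under 0.05 and a log2 fold change beyond 0.5. Neither PancVAX nor anti-PD-1 gave a call among 13874 genes (0% called). The fit had no term for combinations of agents, so effects of a combination alone were not tested. At an unadjusted p under 0.05 there were 2353 genes for PancVAX and 997 for anti-PD-1, and DESeq2 called 97 and 25. With the 16 libraries fitted separately and preparation as a replicate block, edgeR called 306 genes for PancVAX (245 higher and 61 lower) and 63 for anti-PD-1. That fit treats both libraries of a pool as separate replicates, and whether they came from the same mice is not given.

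The single call for anti-CTLA-4 (0.00721% of genes, 1658 at an unadjusted p under 0.05) was P2ry14 (chr3:59114623-59153492), which encodes the receptor for UDP-glucose. It was at 0.612 CPM with anti-CTLA-4, 0.795 with both antibodies, 1.00 with PancVAX and anti-CTLA-4 and 1.41 with all 3 agents, and at 2.60 with isotype, 3.46 with anti-PD-1, 4.13 with PancVAX and 7.97 with PancVAX and anti-PD-1. The 4 pools with anti-CTLA-4 all lay below the 4 without it. The log2 fold change was −2.15 (SE 0.15, adjusted p = 0.013, edgeR), and it was −2.34 (adjusted p = 0.018, edgeR) without the clusters led by immune genes. In cells with a Ptprc UMI the gene was at 18.5 CPM. The call was lost without the pool of anti-PD-1 (adjusted p = 0.079, edgeR), of both antibodies (0.15), of PancVAX with anti-PD-1 (0.056), of PancVAX with anti-CTLA-4 (0.056) or of all 3 agents (0.16), with log2 fold changes from −2.22 to −2.02. It was also lost in whole-tumor libraries alone (−2.05, adjusted p = 0.083, edgeR) and within the study's limits on UMIs and genes (−1.21, adjusted p = 0.999, edgeR). DESeq2 called 95 genes for this agent and the fit with the replicate block 194.

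The sets of genes followed the same course, with no member of any list called for PancVAX or anti-PD-1 and none for anti-CTLA-4. The log2 fold changes of all genes had medians of 0.0072 for PancVAX, 0.00077 for anti-PD-1 and −0.0058 for anti-CTLA-4. For PancVAX, 3 of 26 glycolysis and hypoxia genes were above 0, with a median of −0.20 and 11 at an unadjusted p under 0.05. Cluster 6, led by hypoxia genes, held 8.84% to 10.6% of whole-tumor and 11.1% to 15.05% of Percoll keratin 8/18 cells without PancVAX, against 2.95% to 9.42% and 4.39% to 9.55% with it, and its part in these values was not tested. Mif, a cytokine induced by hypoxia, was at 1974, 2084, 1957 and 2132 CPM without PancVAX and at 1851, 1646, 1523 and 1628 CPM with it (isotype, anti-PD-1, anti-CTLA-4 and both antibodies, in turn). The groups did not overlap, and the log2 fold change of −0.37 (SE 0.07) did not pass the test (adjusted p = 0.14, edgeR). Ero1l was at 162, 174, 201 and 230.0 CPM without PancVAX and 167, 111, 83.3 and 130.3 CPM with it, with PancVAX alone inside the range of the pools without it (log2 fold change −0.71, SE 0.23, adjusted p = 0.20, edgeR).

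No immune marker gene was called for PancVAX in keratin 8/18 cells. All 11 T and NK cell genes were above 0, with a median log2 fold change of 1.12 and summed levels of 37.3 to 170.2 CPM with PancVAX against 21.4 to 35.4 without it. The highest value was that of PancVAX and anti-PD-1, and the other 3 pools with PancVAX were at 37.3 to 56.0 CPM. The Percoll library of that pool, the shallow one, had 21.5% of its keratin 8/18 cells in cluster 9, against 0.516% to 7.64% in the other Percoll libraries. The 10 macrophage and monocyte genes had a median of 0.67 (158 to 316 against 103 to 194 CPM, with overlapping pools) and the 6 neutrophil genes, 5 of them above 0, of 1.11 (63.1 to 137 against 29.5 to 57.7 CPM). S100a9, a neutrophil gene, was at 22.8, 19.5, 14.5 and 25.1 CPM without PancVAX and 28.6, 47.8, 60.1 and 49.9 CPM with it. The groups did not overlap, and the log2 fold change was 1.09 (SE 0.22, adjusted p = 0.14, edgeR). The B and plasma cell list had a median of −0.57 with 2 of 5 genes above 0 (6.26 to 10.8 against 6.66 to 31.9 CPM). The 4 hemoglobin genes were all above 0, with a median of 3.23 and summed levels of 12.2 to 46.7 CPM with PancVAX against 0.0837 to 26.1 CPM without it. The part of these transcripts in the values of the other lists was not tested. Without the clusters led by immune genes edgeR again called 0 genes for PancVAX, 1 for anti-PD-1 and 3 for anti-CTLA-4.

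Interferon-stimulated genes had 36 of 47 members above 0 for PancVAX (median 0.081) and 7 of 47 for anti-CTLA-4 (median −0.19). Their summed levels overlapped for both agents, at 6320 to 8007 CPM with PancVAX against 6064 to 7898 CPM without it, and at 6064 to 7898 CPM with anti-CTLA-4 against 6262 to 8007 CPM without it. The pool of anti-CTLA-4 alone was the highest without PancVAX (7898 CPM), and the interferon-led cluster 2 was largest there, at 22.4% of whole-tumor and 29.6% of Percoll keratin 8/18 cells, so that the sign of the median did not hold in every pool. MHC class II genes were all above 0 for anti-PD-1 (7 of 7, median 0.52) and for anti-CTLA-4 (7 of 7, median 0.54). The macrophage and monocyte genes were 10 of 10 above 0 for both antibodies (medians 0.19 and 0.18), and the T and NK cell genes were 11 of 11 above 0 for anti-PD-1 (median 0.56) and 0 of 11 for anti-CTLA-4 (median −0.61). For anti-PD-1 the summed T and NK cell level was 170.2 CPM in the pool of PancVAX and anti-PD-1 and 21.4, 35.4 and 56.0 CPM in the other 3 pools, against 22.1 to 45.2 CPM without the antibody. Summed MHC class II levels were 1391 to 45834 CPM in clusters 9 to 13, led by immune genes, against 222 to 3348 CPM in clusters 1 to 8, and the part of these cells in the MHC class II values was not tested. H2-Aa was at 128, 156, 283 and 207 CPM without PancVAX and at 122, 277, 128 and 316 CPM with it, in the order given above, and the pools overlapped for each antibody. For anti-PD-1 the fold change was 0.55 (SE 0.31, adjusted p = 0.75, edgeR) and for anti-CTLA-4 0.54 (SE 0.30, adjusted p = 0.53, edgeR). For anti-CTLA-4, 28 of 30 S phase genes (median 0.12) and 35 of 36 G2 and M phase genes (median 0.093) were above 0, and for anti-PD-1 1 of 36 G2 and M phase genes was (median −0.10). No member of these lists passed the test. Sox9 was at 240.0, 239.7, 292 and 281 CPM without PancVAX and at 253, 381, 399 and 430.3 CPM with it (log2 fold change 0.39, SE 0.10, adjusted p = 0.16, edgeR). Hmga1 was at 363 to 435 CPM without PancVAX and at 349 to 426 CPM with it, with overlapping pools (log2 fold change −0.10, SE 0.09).

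The effect of PancVAX in keratin 8/18 cells was also compared with that in Prelp Ogn cells of the same pools. The difference between the effects passed the test for 0 of 14309 genes (0% called) by edgeR, with 940 at an unadjusted p under 0.05 and 7 called by DESeq2. Without cells that had an immune UMI edgeR called 4. A p that missed the threshold does not show that the 2 classes responded alike.

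The comparison of preparations gave the most calls. Between the 2 libraries of each treatment, edgeR called 558 of 13238 genes (4.22%), 295 higher in Percoll keratin 8/18 cells (2.23%) and 263 lower (1.99%), with 5837 at an unadjusted p under 0.05. DESeq2 called 397. Separation and batch cannot be told apart here. The stress-inducible gene Gadd45g ranged from 39.8 to 57.9 CPM (median 46.1) in whole-tumor and from 79.9 to 133 (median 100.6) in Percoll libraries. It was higher in 8 of 8 pairs with no overlap, by 1.12 on the log2 scale (SE 0.04, adjusted p = 3.9e-10, edgeR). Rasd1, a small GTPase gene induced by glucocorticoids, ranged from 1.51 to 5.71 CPM (median 2.19) and from 6.50 to 15.3 CPM (median 8.91), a log2 difference of 1.91 (SE 0.09).

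Igf2 and Myc were among the 8 higher genes with the smallest p. Igf2, the fetal growth factor, went from 45.04 to 57.1 CPM (median 50.3) to 73.7 to 97.2 CPM (median 89.7), without overlap, and by 0.76 on the log2 scale (SE 0.04, adjusted p = 2.2e-08, edgeR). Myc, the proto-oncogene and immediate-early gene, went from a median of 61.2 to 94.97 CPM (0.61, SE 0.04), and 8 of 8 pairs were higher although the ranges (52.4 to 85.6 and 85.2 to 134 CPM) met. Gadd45b, Ppp1r15a, Plk2 and Dusp10, all induced by stress, were higher by 0.82, 0.68, 0.60 and 0.59 in 8 of 8 pairs.

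**Figure D5:**
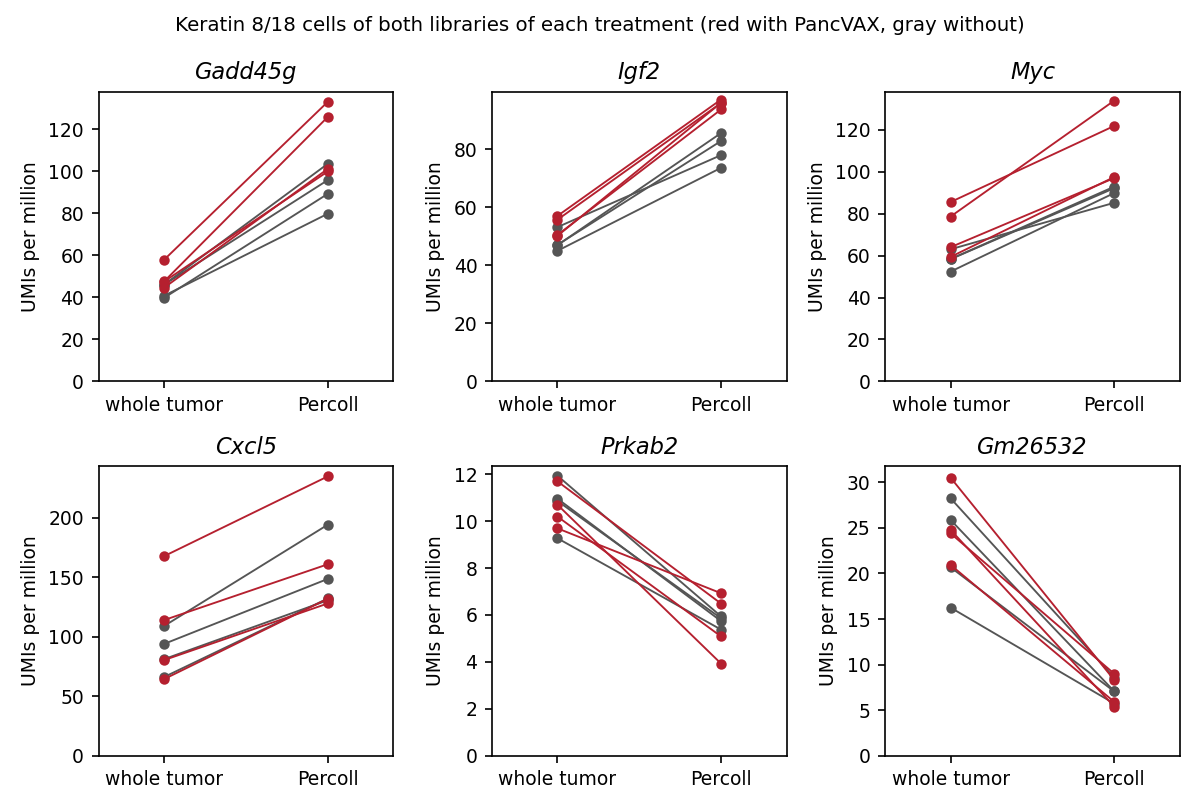
Level (CPM) of 6 genes in keratin 8/18 cells of the whole-tumor and Percoll library of each treatment, joined by a line; red lines are treatments with PancVAX and gray lines those without. Gadd45g, Igf2, Myc and Cxcl5 were higher and Prkab2 and Gm26532 lower in Percoll libraries in 8 of 8 pairs.

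The list of chemokines, cytokines, growth factors of immune cells and prostaglandin synthases had the most calls. Of its genes, 9 of 30 were higher and 1 lower in Percoll keratin 8/18 cells. Cxcl5 ranged from 64.3 to 168 CPM (median 87.5) in whole-tumor and from 128 to 235 (median 140.3) in Percoll libraries, a log2 difference of 0.70 (SE 0.06, adjusted p = 1.1e-06, edgeR). The ranges overlapped, but each pair rose. Cluster 3, led by Cxcl5, held 8.69% to 28.1% of Percoll and 6.85% to 20.6% of whole-tumor keratin 8/18 cells and was larger in Percoll in 8 of 8 treatments, as was cluster 2, while the shallow cluster 5 was smaller in 7 of 8. The part of these shifts in the differences was not tested. The neutrophil chemokines Cxcl1, Cxcl3 and Cxcl15 rose by 0.67, 0.52 and 0.96, Ccl2 by 1.01, Csf3 by 0.75, Il6 by 1.02, Il1a by 0.78 and the prostaglandin synthase gene Ptgs2 by 0.51, while Il1b fell by 0.55 on the log2 scale. Among other lists the epidermal growth factor ligand Ereg rose by 0.70, the class Ib gene H2-T23 by 0.54, the death receptor gene Fas by 0.65, the co-chaperone gene Dnajb1 by 0.54, Snai1 by 0.51, the transcription factor gene Ovol1 by 0.91, the small heat shock gene Hspb1 by 1.79 and the protease genes Mmp13 and Plau by 0.59 each. The Hspb1 pairs were higher in Percoll in 5 of 8 treatments, at 0.156 to 1.43 CPM in whole-tumor and 0.134 to 8.22 CPM in Percoll libraries. The chromatin gene Hmga2 and the checkpoint gene Vsir had log2 differences of −0.64 and −0.62. The trefoil factor gene Tff2 was also called lower, but it had UMIs in 3 of 8 pools only and was at most 2.95 CPM in any library. No S phase gene and no G2 or M phase gene was called, although 3 of 36 of the latter were above 0. Glycolysis and hypoxia genes had 23 of 26 above 0 and only Eno1 called, with a log2 difference of −0.58.

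The 8 lower genes with the smallest p belonged to no list. Gm26532, a predicted gene, ranged from 16.3 to 30.5 CPM (median 24.6) in whole-tumor and from 5.37 to 8.99 (median 7.05) in Percoll libraries, lower in 8 of 8 pairs without overlap, with a log2 difference of −1.76 (SE 0.07, adjusted p = 6.1e-10, edgeR). Prkab2, a regulatory subunit of AMP-activated kinase, was at 9.27 to 11.9 CPM (median 10.8) and 3.93 to 6.93 CPM (median 5.80), a difference of −0.95. Zfp329, Leng8, Cdca7, Ttc14, Alkbh1 and Pnisr had log2 differences of −0.95, −0.74, −0.63, −0.59, −0.57 and −0.53 and were lower in 8 of 8 pairs. Some transcripts of other cells also fell, while 6 of 7 fibroblast and 4 of 4 keratinocyte genes were above 0 with none called. The 4 hemoglobin genes had log2 differences of −4.89 to −3.31, and their summed median was 31.9 CPM in whole-tumor libraries, while it was listed at 0 in Percoll libraries. Of the skeletal muscle genes tested 5 of 5 were lower, for example Acta1 with a log2 difference of −1.75, and C1qa, C1qb and C1qc differed by −0.62, −0.58 and −0.64, and the neutrophil gene G0s2 by −1.26, the only call among 6 neutrophil genes, of which 3 were above 0. The seminal vesicle genes Svs4 and Svs5 were also called, but the rule uses them and their summed level was 12.8 CPM in the pool of both antibodies and at most 0.0379 CPM in the others. Their part in the other differences was not tested. Without pairing the libraries by treatment the call count was 268, of which 259 were also called with the same sign in the main fit. Within the study's limits on UMIs and genes the count was 259, of which only 90 were.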

How the data were processed

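Dissociated tumors of 8 treatments were profiled with the 10x Chromium 5′ kit. Per the labels and the submitters' processing notes the authors made the deposited UMI counts with Cell Ranger 4.0.0 on mm10 and went on in Seurat. The deposited values were raw UMI counts per gene and barcode in whole numbers, with no normalization, and each library held 77132398 to 176233225 UMIs. The barcodes of the Percoll libraries were also matched to the deposited T cell receptor contigs, whose column of UMI counts per contig was not otherwise used.

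Barcodes were filtered and gated as described above, without removing Scrublet doublets or hemoglobin-positive cells, and were grouped by the treatment and preparation in their labels. The members, gene lists and tests were chosen with earlier results of these data known. Counts of keratin 8/18 cells were summed per pool (1491 to 3684 cells, 26357906 to 88304052 UMIs) and fitted in edgeR 4.0.16 (R 4.3.3) with TMM, filterByExpr and terms for the 3 agents. Percoll was tested with the treatment as a block, the replicate block, since the labels tie both libraries to 1 treatment. P-values were adjusted by Benjamini-Hochberg over all genes tested. DESeq2 1.42.0 was an alternative. On simulated counts with 200 changed genes, 2-fold changes were recovered in 81% (PancVAX), 81.5% (anti-PD-1), 74% (anti-CTLA-4), 89% (Percoll) and 67.5% (difference between classes) of cases. These counts were drawn gene by gene from the fitted model, without shifts in cell mixture or effects of combinations. The recovery therefore does not show that 2-fold changes were absent from the data. Shares were tested with exact permutations in Python 3.11.15 and scipy 1.17.1, and Wilson 95% intervals and a limit of 3 counts for a count of 0 were given for shares of single libraries. Clustering used scanpy 1.11.5 with 2000 variable genes, 25 components, 20 neighbors and Leiden resolution 0.6.

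Named genes were, per comparison, up to 8 called genes in each direction with the smallest p among genes with at least 100 UMIs and, per list, every called member or otherwise up to 3 members by level. Krt76, Akr1c18, Krt79, Foxq1, Enpp2, Krt19, Mif, Ero1l, S100a9, H2-Aa, Sox9 and Hmga1, the cluster genes and the compared genes were chosen after values were seen. Coordinates were taken from the RefSeq annotation of GRCm38.p6, which shares coordinates with mm10. No sequence is printed, since the measurements bear on none. Alternatives covered filters, thresholds, depth, doublets, single pools and preparations.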

Additional observations from a re-analysis of the deposited data

Results flagged for a closer look

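Within groups of 4 pools a value was marked when its gap to the nearest other pool exceeded the 95% limit of Dixon's test, which chance passes in about 1 of 20 groups, and 38 groups were tested. Krt76 was marked in the pool of all 3 agents (74.7 CPM) among pools with PancVAX and in the pool of both antibodies (130.2 CPM) among pools without it. Akr1c18 (100.4 and 58.5 CPM), Krt79 (15.3 and 32.2 CPM) and Foxq1 (74.3 and 82.4 CPM) were marked in the same pair of pools. These 4 genes were picked after their values were seen and are transcripts of the same cells, so the marks follow from that choice, are not independent, and the chance rate does not apply to them.

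Among the pools with PancVAX, the share of keratin 8/18 cells was highest with PancVAX alone (16.1%), Cks1b was highest with PancVAX and anti-CTLA-4 (422 CPM), and the median depth per keratin 8/18 cell was lowest with PancVAX and anti-PD-1 (7007 UMIs), where 41.3% of the cells had under 5000 UMIs.

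T cell receptor contigs, which the comparisons did not use, were found in 55 of 7932 keratin 8/18 cells of the Percoll libraries (0.693%), against 70.3% of 11259 cells with Cd3 transcripts in the same libraries.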

How the results depend on the processing

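Leaving out each pool in turn moved the share difference from −6.36 to −3.07 points for PancVAX, −5.92 to −1.98 for anti-PD-1, −1.86 to 2.20 for anti-CTLA-4 and −3.51 to −2.47 for Percoll, the cycle share difference from −2.94 to 0.028, −3.69 to −1.65 and 1.60 to 3.58 for the 3 agents, and the call count from 0 to 0, 0 to 3 and 0 to 5 for the agents, 449 to 638 for Percoll and 0 to 0 for the difference between classes. With exclusion genes judged by rate the PancVAX share difference was −8.03 points, and within the study's limits it was −1.85. The anti-PD-1 share difference was −1.73 within those limits. The anti-CTLA-4 share difference turned negative within the study's limits (−0.157), in Percoll libraries (−0.772) and with barcodes lacking Ptprc as denominator (−0.284), and its cycle difference within the study's limits (−0.297). The PancVAX cycle difference turned positive with a keratin threshold of 10 per 10000 (0.686), with exclusion genes judged by rate (0.447) and in whole-tumor libraries (0.210). The Percoll share difference missed the threshold within the study's limits (−3.35) and without pairing (−2.77, exact permutation p = 0.224).

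For PancVAX, anti-PD-1 and the CTLA-4 antibody in turn, DESeq2 called 97, 25 and 95 genes, edgeR without a filter on low counts 2, 6 and 24, and edgeR on 16 libraries with preparation as a replicate block 306, 63 and 194. Whole-tumor libraries alone gave 1 call for PancVAX and 0 for anti-CTLA-4, and Percoll libraries alone 3 for anti-CTLA-4, which had 0 within the study's limits, 4 with exclusion genes by rate and 4 without cells with an immune UMI. Alternatives chosen after seeing the data gave 2 calls for anti-CTLA-4 in cells of 5000 UMIs or more, 2 without the PancVAX and anti-PD-1 Percoll library, and 3 without the clusters led by immune genes (1 for anti-PD-1). Percoll calls came to 268 without the replicate block and 259 within the study's limits, and the difference between classes to 7 in DESeq2 and 4 without cells with an immune UMI. P2ry14 was called in 17 of 24 alternatives, with the same sign in 24. Fewer cells remained within the study's limits, and the cause of the changes under any alternative was not tested. Depth limits rare transcripts, since 1000 UMIs per cell were kept for shares.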
